A study of Mus musculus with 8 samples.

Results

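Cells of the mouse line SN4741 with the highest p53 output at 37 °C were compared with the lower-scoring cells of the same libraries. p53 output was scored in each cell as the share of its transcripts, counted as unique molecular identifiers (UMIs), that came from Cdkn1a, Mdm2 and Ccng1. The members were the top 10% of cells of each 37 °C library by this score, among cells with at most 15% mitochondrial UMIs, 200 to 6000 genes and at least 5000 UMIs. They numbered 788 of 7882 such cells at 37 °C, of 19125 cells deposited in the series. Replicates 1, 2, 3 and 4 gave 218, 160, 170 and 240 members, and the cells below the library median of the score, used for comparison, numbered 1091, 799, 851 and 1199. Because the score chose the members, the levels of the 3 score genes are a description, and these genes were left out of every test of cells that they had helped to choose. The lowest score of a member lay between 0.406 and 0.436% of UMIs across the libraries, and the highest score of a non-member between 0.405 and 0.436%, so the limit cut through a continuous range.

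SN4741 is a mouse line labelled as neural precursor cells, kept dividing by a heat-sensitive viral T antigen, and its karyotype was described by the study as polyploid and unstable. The series holds 8 single-cell libraries. The 4 libraries at 37 °C (the permissive temperature) came from cells in medium with 10% fetal bovine serum. The 4 libraries at 39 °C came from cells kept at 39 °C in medium with 0.5% serum for 48 hours, so temperature and serum cannot be told apart between them. All groups were of this 1 line, for which the labels give the genotype WT, and all carried the T antigen as a transgene under the promoter of Th (tyrosine hydroxylase). The labels do not say whether libraries came from separate cultures, so p-values measure at most the spread between libraries, which may be technical. In the gene tests that spread was estimated with information shared across genes.

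p53, encoded by Trp53, is a transcription factor that is held at a low level by MDM2, a ubiquitin ligase that p53 itself induces. Among its direct targets, Cdkn1a encodes p21, an inhibitor of cyclin-dependent kinases that halts the cell cycle, and Ccng1 encodes cyclin G1, a feedback regulator. Other targets act in cell death, DNA repair and metabolism, and in many dividing cell lines p53 activity comes and goes from cell to cell.

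p53 binds a response element made of a pair of half-sites, each with a core of C, a pair of A or T bases, and G. Elements of 20 bases with both cores intact and at most 3 mismatches elsewhere were searched in promoter windows from RefSeq (GRCm38.p6, 250 bases before to 50 after each start site). The element reads the same way on both strands, so 1 scan covers both. Of 32851 windows, 188 (0.572%) held one, as did 72 of 10419 genes tested below (0.691%), and 5 of 43 genes of a p53 target list with a window in the table (11.6%). The sites of Cdkn1a and of these 5 list genes are shown, with that of Gtse1, because they are the described genes whose promoter window holds the element. The cores are in capitals.
Cdkn1a: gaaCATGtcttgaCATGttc
Rps27l: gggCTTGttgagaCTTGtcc
Ckap2: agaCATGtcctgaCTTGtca
Aen: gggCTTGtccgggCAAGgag
Bbc3: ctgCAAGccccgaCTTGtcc
Tigar: ggtCTAGctctggCAAGact
Gtse1: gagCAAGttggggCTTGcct
They lie at chr17:29090928-29090947 (Cdkn1a), chr9:66946296-66946315 (Rps27l), chr8:22186003-22186022 (Ckap2), chr7:78895937-78895956 (Aen), chr7:16309486-16309505 (Bbc3), chr6:127109746-127109765 (Tigar) and chr15:85859945-85859964 (Gtse1), printed on the strand of the gene, which is the minus strand for Ckap2 and Tigar. The Cdkn1a, Rps27l and Gtse1 elements have 1 mismatch, that of Ckap2 has 2, and those of Aen, Bbc3 and Tigar have 3. Ckap2 and Gtse1 are also in the G2M gene list used below. Tigar was named after its values were seen and was not called between members and below-median cells (log2 fold change -0.27, adjusted p = 0.321). An element in these letters is a description and not a measured binding site.

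The 37 °C libraries held 1799 to 2730 cells and 29116884 to 33652656 UMIs as deposited, and the 39 °C libraries 1167 to 3557 cells and 22988911 to 28879724 UMIs. No pair of libraries shared more than 5 cell barcodes. Summed over the tested genes, the members of a library gave 2315240 to 2703541 UMIs and the below-median cells 13320030 to 14387954, so the precision of each comparison is set by the members. The label of neural precursor was checked on markers in the members and the below-median cells together. Sox2 and Nes, which mark neural progenitors, were present, while Pax6 and Fabp7 had 0 UMIs in the members and 2 each in the below-median cells. The neuronal markers Stmn2, Map2 and Tubb3 had 1340, 633 and 159 UMIs in the members and 5750, 2373 and 814 in the below-median cells. Rbfox3, also neuronal, had 4 and 0. Stmn2 and Map2 were called higher in the members (log2 fold change 0.24 and 0.44), while Tubb3 was not called (-0.014). The call of Map2 was lost with the score without Cdkn1a (0.14). Dcx and Snap25 (neurons), Ddc (dopaminergic neurons), Gfap, Olig2 and Sox10 (glia) and Cdh5 and Kdr (endothelium) were at 0 UMIs in both. The mesenchymal collagen gene Col1a1 stood at 929 CPM (counts scaled to a total of 1000000) in the members.

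The members carried more of each score gene than the below-median cells, which follows from how they were chosen. Cdkn1a stood at 766, 632, 696 and 714 CPM in the below-median cells of replicates 1, 2, 3 and 4 and at 2840.1, 2469.9, 2600.4 and 2842 in the members. Mdm2 stood at 383, 315, 320.1 and 339 CPM in the below-median cells and at 1613, 1667, 1587 and 1636 in the members. For Ccng1 the values were 421, 376, 414 and 409.8 CPM and 940.4, 910.4, 936 and 902 CPM. Cdkn1a gave the most UMIs of the 3 genes in 78.1 to 87.2% of members, and each of the 3 genes was detected in every member.

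To separate the score from counting noise, the UMIs of each cell were split at random into 2 equal sets, with cells chosen on one set and read in the other. The top and below-median cells chosen this way need not be the same cells as above. In the set not used for choosing, their mean log2 ratio was 1.67 for Cdkn1a, 1.98 for Mdm2 and 1.01 for Ccng1. The members over the below-median cells gave 1.94, 2.26 and 1.19 in all UMIs. A second check chose the cells with 1 score gene left out and tested that gene. In the top cells chosen without it, Cdkn1a was higher by 1.17 ± 0.027 on the log2 scale (SE, adjusted p = 2.12e-90). Mdm2 was likewise higher by 1.39 ± 0.038 (SE, adjusted p = 4.82e-46) and Ccng1 by 0.80 ± 0.036 (SE, adjusted p = 4.85e-100). These p-values are from edgeR's quasi-likelihood test on library sums, and the cells so chosen again need not be the members.

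**Figure D1:**
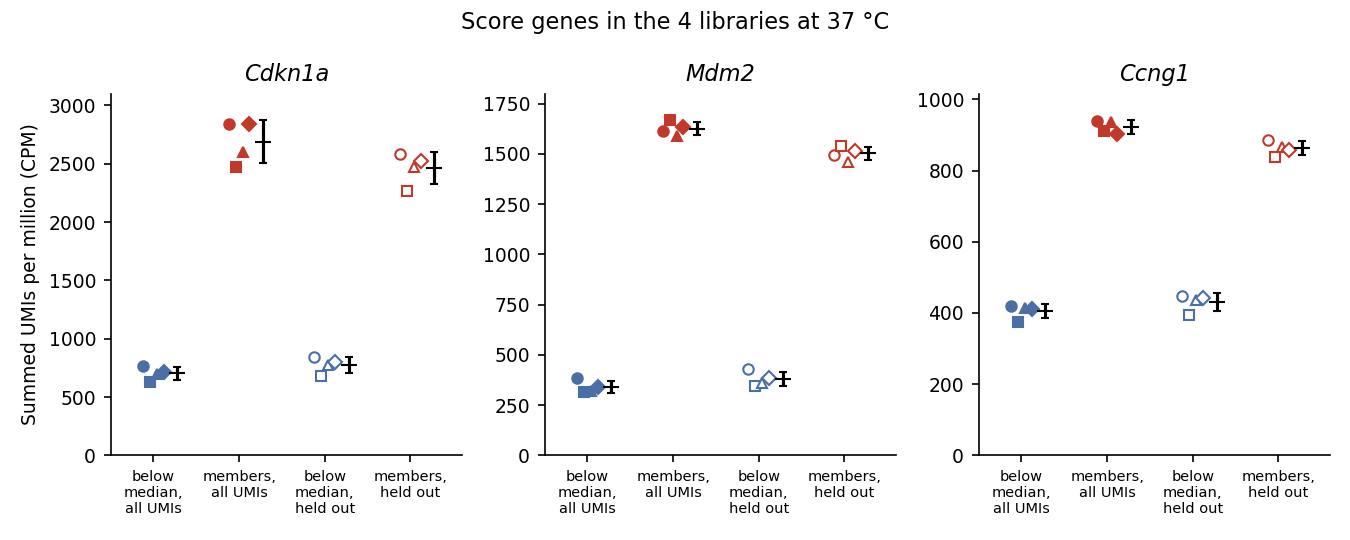
Level of Cdkn1a, Mdm2 and Ccng1 in the below-median cells (blue) and the members (red) of each 37 °C library, in CPM. Filled symbols use all UMIs and open symbols the UMIs not used to choose the cells, each symbol shape is 1 replicate, and the bars are the mean ± SD of the 4 libraries. Red lies above blue in every panel. The cells of the open symbols were chosen anew on the other UMIs and need not be the members.

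Across all genes, members and below-median cells differed widely. Of 13994 genes tested on library sums (edgeR's quasi-likelihood test with the library as a block, Benjamini-Hochberg adjusted p under 0.05), 2706 (19.3%) were higher in the members and 3063 (21.9%) lower, and 1529 (10.9%) and 1158 (8.27%) of these passed a log2 fold change of 0.5 in size. A log2 fold change of 1 is a 2-fold difference. The split of the calls depended on scaling: 46.9% of them were higher with TMM factors, edgeR's scaling between sums, and 59.6% with library totals alone, a scaling that moved the median of all genes from -0.017 to 0.066 on the log2 scale. Against this wide background, the members' results are given by gene group. Group counts near 19.3% higher and 21.9% lower are no result about that group.

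The p53 targets outside the score rose together. All 54 targets of the lists passed the filter on low values, and 44 were called higher and 0 lower, with a median log2 fold change of 0.73 against -0.017 over all genes tested. The list was chosen with earlier results of these data known. Its counts moved between 42 and 46 of 54 over the alternatives run. The list splits by role into arrest and feedback, cell death, and repair and metabolism.

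In the arrest and feedback group, 11 of 13 genes were called higher (median 0.62). Btg2, an antiproliferative factor that slows entry into S phase, measured 149, 100.1, 125 and 134 CPM in the below-median cells of replicates 1 to 4 and 485, 396, 464 and 383 CPM in the members, a log2 fold change of 1.77 ± 0.05 (SE, adjusted p = 1.37e-46). The members lay above the below-median cells in all 4 libraries with no overlap. Mdm4, a partner of MDM2 that restrains p53, went from 77.9, 66.3, 72.8 and 71 CPM to 201, 211, 220.1 and 183 CPM (log2 fold change 1.5 ± 0.057 SE, adjusted p = 1.06e-37), again with no overlap. Ppm1d, a phosphatase that switches p53 signalling off, rose by 1.04 ± 0.079 (SE, adjusted p = 5.41e-20) on the log2 scale. Phlda3, an inhibitor of AKT, stood at 589.7, 535, 555 and 594 CPM in the below-median cells and 1007, 973, 1033 and 1072 CPM in the members (log2 fold change 0.85 ± 0.036 SE, adjusted p = 1.73e-34). Zmat3, Plk2, Ccng2, Rchy1 and the noncoding Pvt1 rose by 0.77, 0.62, 0.60, 0.48 and 0.48 on the log2 scale. For Ccng2 the value was 0.13 with cells chosen within each phase (adjusted p = 0.453) and 0.16 in G1 cells (adjusted p = 0.75), neither of them called. Gadd45a, which acts in arrest and repair, measured 0.28 ± 0.11 on the log2 scale (SE, adjusted p = 0.0401), but this call was lost without any 1 of the 4 libraries (adjusted p = 0.0684 to 0.133), with DESeq2 (adjusted p = 0.177), without the library block (0.0538) and when thinned (0.78), and with cells chosen within each phase the value was near 0 (-0.016, adjusted p = 0.932). Rps27l, whose promoter element is shown above, rose by 0.19 ± 0.032 (SE, adjusted p = 6.76e-07). Plk3 and the noncoding Trp53cor1, both at a low level, were not called.

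In the death group, 15 of 16 genes were called higher (median 0.99). Trp53inp1, a stress protein that promotes p53-dependent death and autophagy, measured 70.7, 54.6, 53 and 56.5 CPM in the below-median cells and 269.8, 274, 271 and 238 CPM in the members, a log2 fold change of 2.17 ± 0.057 (SE, adjusted p = 1.53e-48). Every member value exceeded every below-median value by a wide margin. Pmaip1, which encodes the BH3-only protein NOXA, went from 12.4, 10.6, 11.8 and 13.2 CPM to 37.4, 38.8, 47.2 and 34.5 CPM (log2 fold change 1.71 ± 0.11 SE, adjusted p = 1.38e-24). Bbc3 (PUMA), another BH3-only gene, with an element in its promoter window, went from 26.7, 28.1, 23.6 and 28.5 CPM to 53.2, 45.9, 60.7 and 54.4 CPM (log2 fold change 1.01 ± 0.087 SE, adjusted p = 3.66e-17). Both inducers of the mitochondrial pathway were higher in 4 of 4 libraries. Bax, the pore-forming effector downstream of them, rose less: 804, 750.0, 767 and 790.1 CPM in the below-median cells and 975, 960.0, 991 and 1061 CPM in the members (log2 fold change 0.36 ± 0.035 SE, adjusted p = 1.84e-14). Apaf1, the core of the apoptosome, rose by 1.37 ± 0.086 (SE, adjusted p = 2.08e-24), and Pidd1 by 1.19. Of the death receptors, Fas rose by 1.19 ± 0.057 (SE, adjusted p = 1.36e-31), Eda2r by 1.18 and Tnfrsf10b by 0.97, the last ranging from 0.46 to 1.27 between libraries with replicate 1 lowest. Perp, Ei24, Aen, Ninj1 and Siva1 rose by 0.76, 0.85, 0.49, 0.37 and 0.33. Triap1, which protects from apoptosis, differed by 0.11 ± 0.089 (SE, adjusted p = 0.362) and was not called.

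Of the repair and metabolism group, 18 of 25 were called higher and 0 lower (median 0.59). Notch1, a receptor that is also counted among neural progenitor genes, had the largest change of the group: 140.0, 110.5, 114 and 113 CPM in the below-median cells and 479.8, 468, 483 and 446 CPM in the members (log2 fold change 1.98 ± 0.048 SE, adjusted p = 2.45e-51). The 4 member libraries lay within a narrow range and far above the below-median cells. Ercc5 and Polk, of nucleotide excision repair and translesion synthesis, rose by 1.27 ± 0.054 (SE, adjusted p = 1.1e-34) and by 1.17 ± 0.06 (SE, adjusted p = 1.61e-29). Sesn2 and Ddit4, both inhibitors of mTORC1 signalling, rose by 1.41 and 1.41, and Sesn1 by 0.54. Dcxr, an oxidoreductase, measured 217, 189.6, 198 and 201 CPM against 519, 561, 523 and 489.8 CPM (log2 fold change 1.37 ± 0.045 SE, adjusted p = 3.63e-42). Tap1, the peptide transporter of antigen presentation, rose by 1.42, and Rrm2b, the p53-induced ribonucleotide reductase subunit, by 0.52. Cd82 and Ankra2 were not called (-0.10 and 0.18), nor were the scarcer Xpc, Ddb2, Polh, Tigar and Gls2.

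**Figure D2:**
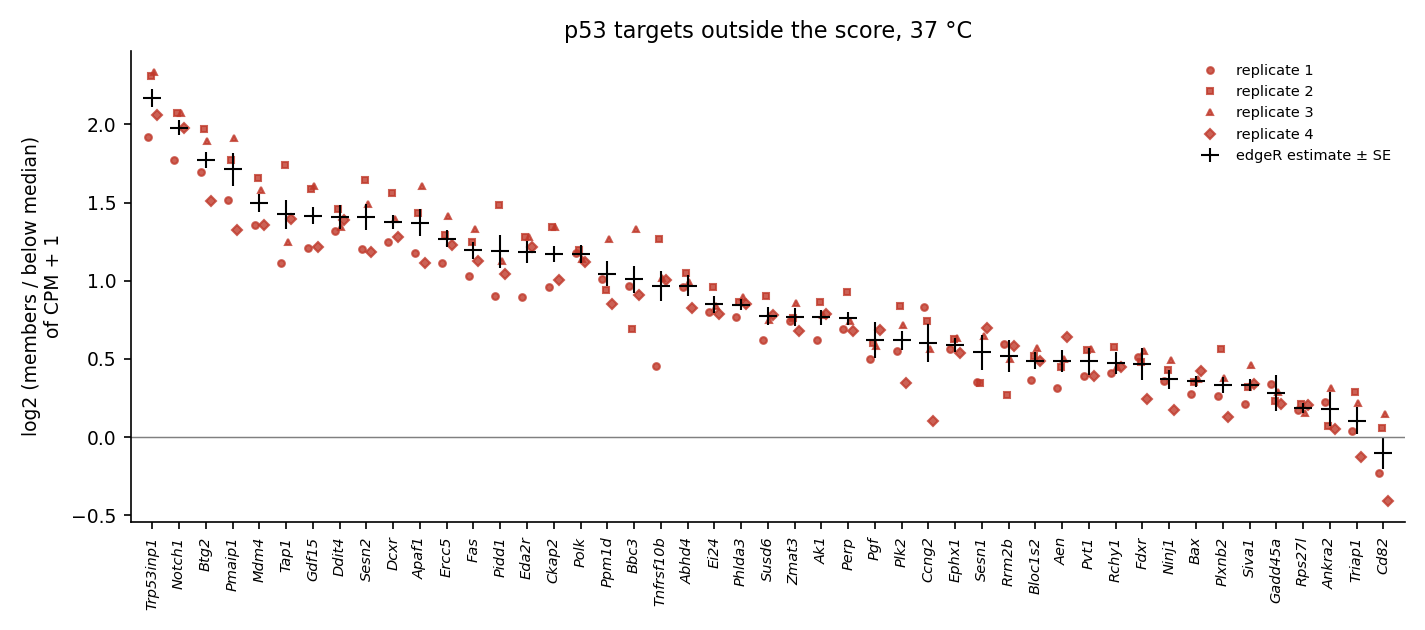
log2 ratio of members over below-median cells for the 47 named p53 targets outside the score, ordered by the edgeR estimate (black, ± SE). Each red symbol is 1 of the 4 libraries at 37 °C, computed on CPM + 1. From Trp53inp1 to Rps27l all estimates are above 0, while Triap1 and Cd82 have libraries on both sides of 0.

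The regulators of p53 went in both directions. Of 17 tested regulators, 2 were called higher and 7 lower. Trp53 itself was slightly lower in the members, at 164, 176, 182 and 187 CPM against 199, 196, 223 and 222 CPM in the below-median cells (log2 fold change -0.25 ± 0.05 SE, adjusted p = 3.16e-05). For Trp53 the call was lost with the score without Cdkn1a (-0.069, adjusted p = 0.241) and in G1, S and G2M cells taken alone (-0.19, -0.14 and -0.14, adjusted p = 0.15, 0.554 and 0.0751). Hipk2, a kinase that phosphorylates p53, fell from 27.7, 27.8, 27.6 and 28.2 CPM to 15.5, 17.3, 12.4 and 16.2 CPM (log2 fold change -0.86 ± 0.12 SE, adjusted p = 1.66e-09). Rpl5 and Rpl11, ribosomal proteins that bind MDM2 when ribosome assembly fails, fell by 0.52 and 0.30 on the log2 scale. Ribosomal protein genes as a family had 71 of 77 called lower, with a median of -0.28, so the fall of Rpl11 is not particular to a p53 regulator.

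Beyond the lists, the 10 largest rises among called genes of at least 20 CPM ran from 2.12 to 3.57 on the log2 scale. Evpl, an epithelial envelope protein, measured 1.67, 1.47, 2.08 and 2.12 CPM in the below-median cells of replicates 1 to 4 and 12.9, 24.4, 30.3 and 21.3 CPM in the members (log2 fold change 3.57 ± 0.18 SE, adjusted p = 1.13e-30). Nectin4, an adhesion receptor, went from 6.99, 5.04, 4.38 and 6.30 CPM to 41.4, 61.1, 67.6 and 34.5 CPM (log2 fold change 3.15 ± 0.13 SE, adjusted p = 2e-35). Genes were named here only if all 4 libraries had 1 direction, so that agreement is no result. Fgf18, a growth factor, measured 4.80, 4.34, 3.81 and 5.50 CPM against 33.8, 26.1, 27.8 and 20.6 CPM (log2 fold change 2.55 ± 0.14 SE, adjusted p = 1.55e-27), and Jag2, a ligand of Notch receptors, 6.84, 5.89, 7.47 and 7.25 CPM against 30.9, 30.7, 46.1 and 26.1 CPM (log2 fold change 2.28 ± 0.12 SE, adjusted p = 3.07e-28). Of the remaining largest rises, Col9a3, Gna15, Ckmt1, Fam180a and Zfp750 had log2 fold changes of 2.49, 2.24, 2.17, 2.15 and 2.12. Trp53inp1, described above, completes the 10.

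Among the 10 largest falls, Ung fell the most. Ung, the uracil DNA glycosylase made in S phase, fell from 23.9, 32, 26.4 and 28.9 CPM to 3.96, 4.21, 3.66 and 2.94 CPM (log2 fold change -2.91 ± 0.17 SE, adjusted p = 3.72e-26). Ccne1, the cyclin that drives S phase entry, fell from 21.5, 25.1, 22.3 and 24.6 CPM to 5.75, 5.48, 5.85 and 9.19 CPM (log2 fold change -1.82 ± 0.15 SE, adjusted p = 8.6e-18). Myc measured 23.5, 22.6, 29 and 27 CPM in the below-median cells and 9.71, 4.63, 11.3 and 7.72 CPM in the members (log2 fold change -1.60 ± 0.14 SE, adjusted p = 1.66e-16), and Srm, spermidine synthase, changed by -1.72 ± 0.089 (SE, adjusted p = 1.67e-29). These genes too were named only if all 4 libraries had 1 direction. Spp1 (osteopontin) went from 246, 235, 305 and 235 CPM to 38.8, 98.1, 87.7 and 76.1 CPM (log2 fold change -1.79 ± 0.077 SE, adjusted p = 2.86e-34), and the chemokine Ccl2 from 58.2, 51.6, 88 and 55.5 CPM to 12.9, 22.7, 22.7 and 23.9 CPM (log2 fold change -1.63 ± 0.10 SE, adjusted p = 2.78e-24). Cdca7, Pcdh18, Tm4sf1 and Il1rl1 changed by -1.84, -1.73, -1.70 and -1.62.

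The members were unevenly spread over the cell cycle. Phases were assigned to each cell from the S and G2M gene lists of Seurat, which hold none of the score genes. G1 cells made up 37.6, 30.6, 27.1 and 27.9% of the members of replicates 1 to 4 and 19.3, 18.3, 17.7 and 14.8% of the below-median cells. S cells were 12.8, 9.38, 11.2 and 13.3% of the members against 51.6, 55.7, 54.6 and 54.6% of the below-median cells. G2M cells were 49.5, 60, 61.8 and 58.8% against 29.1, 26, 27.6 and 30.6%. In each phase the 4 libraries moved the same way and members and below-median cells did not overlap. The mean differences were 13.3 ± 3.72 percentage points for G1, -42.5 ± 3.21 for S and 29.2 ± 6.44 for G2M (SD, n = 4; two-sided exact sign-flip permutation test, p = 0.13 each, the smallest that 4 pairs allow, adjusted p = 0.13 over 3 phases). Seen the other way, members were 13.5% ± 1.04 of G1 cells, 2.78% ± 0.482 of S cells and 16.4% ± 1.42 of G2M cells (SD, n = 4).

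The make-up by phase changed along the score. With each library cut into 10 deciles by score, the mean S share was 52.5% in the lowest decile, 56.4% in the fourth, 35.7% in the seventh and 11.7% in the highest. The G2M share had its low point inside the range: it was 33.4% in the lowest decile, 24.7% in the fourth and 57.4% in the highest. Over the same deciles the summed level of the 54 p53 targets outside the score climbed at every step, from 5166 ± 236 CPM to 7697 ± 258 in the fifth and 11484 ± 363 in the highest (SD, n = 4).

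**Figure D3:**
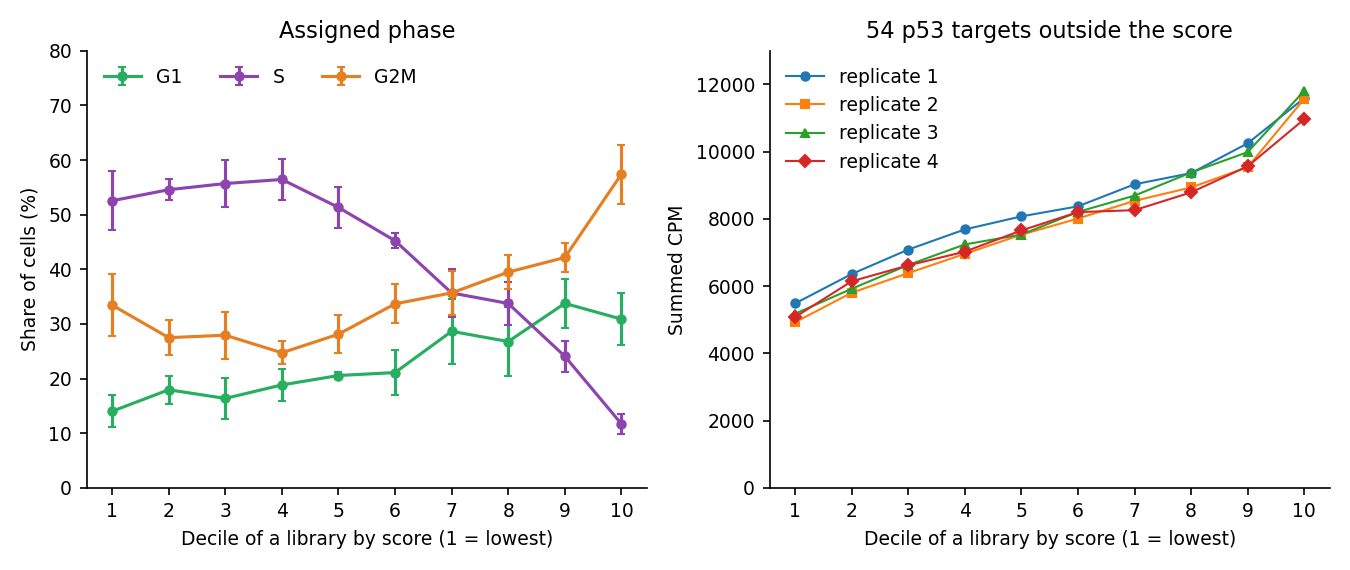
Left, share of cells assigned to G1, S and G2M in each decile of a 37 °C library by score, as the mean of 4 libraries with SD. Right, summed CPM of the 54 p53 targets outside the score in the same deciles, 1 line per library. The S share falls and the G2M share climbs towards the highest decile, and the targets climb at every step.

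Gene by gene, the S phase list was mostly lower in the members, with 35 of 43 called lower and 2 higher (median -0.45). Mcm6, of the replicative helicase, fell from 173, 198, 180.3 and 175 CPM to 83.4, 85.1, 86.6 and 102 CPM (log2 fold change -1.02 ± 0.06 SE, adjusted p = 6.45e-26), and Nasp, a histone chaperone, by -1.06 ± 0.068 (SE, adjusted p = 5.33e-24). The G2M list had 31 of 54 called higher and 6 lower (median 0.21). Summed, this list stood at 9285 ± 1402 CPM in the lowest decile of the score and 9803 ± 1103 in the highest (SD). In the third decile, where it was lowest, it stood at 6763 ± 682, so a high G2M level was not particular to the highest scorers. Gtse1, a G2 protein that binds p53, measured 53.9, 50.9, 53.1 and 51.2 CPM in the below-median cells and 110.1, 131, 138 and 119 CPM in the members (log2 fold change 1.25 ± 0.065 SE, adjusted p = 2.22e-29), and Ckap2 155, 164, 156 and 155 CPM against 303, 417, 399 and 313 CPM (log2 fold change 1.17 ± 0.05 SE, adjusted p = 2.19e-34). These genes carry the promoter elements shown above. Mki67, the proliferation marker, was higher in 3 of 4 libraries (log2 fold change 0.43 ± 0.054 SE, adjusted p = 1.07e-10), at 246, 214, 236 and 255 CPM in the below-median cells and 242, 314, 367 and 366 CPM in the members. With members chosen within each phase, Mki67 was lower (-0.17, adjusted p = 0.00117).

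Genes of the G1 machinery split. Of 17 cyclin, RB and E2F genes, 5 were called higher and 10 lower. Rb1, which encodes the repressor that p21 keeps active, rose from 48.3, 41.6, 38.5 and 39.1 CPM to 106, 103, 110.4 and 87.1 CPM (log2 fold change 1.28 ± 0.069 SE, adjusted p = 3.07e-28), with no overlap. Cdk4, the kinase that inactivates it, fell from 425, 485, 479 and 475 CPM to 328, 343, 349 and 357 CPM (log2 fold change -0.43 ± 0.042 SE, adjusted p = 7.2e-15). Of 7 other inhibitors of cyclin-dependent kinases, 3 rose and 1 fell, with Cdkn2c (p18) at 0.96 ± 0.083 (SE, adjusted p = 3.6e-17) and Cdkn2d (p19) at 0.44, which was -0.030 with cells chosen within each phase. With phase and library as block 1 of these inhibitors was higher and 1 lower, and in G2M cells 2 were higher and 4 lower. Of 22 genes of DNA damage repair outside the p53 lists, 5 rose and 5 fell. These counts are near the shares over all genes tested, 19.3% higher and 21.9% lower. Among them were Xrcc1, a scaffold of single-strand break repair, at 0.79 ± 0.071 (SE, adjusted p = 3.02e-16), and Parp1 at -0.55 ± 0.062 (SE, adjusted p = 2.69e-12).

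Depth was lower in the members than in the below-median cells, but did not fall steadily with the score. The cells scoring between these groups had median UMIs of 12019, 15155, 15905 and 10668 in replicates 1 to 4. The median UMIs per cell were 11474, 13512, 14990.5 and 10070.5 in the members and 12005, 15485, 15696 and 10527 in the below-median cells, lower in 4 of 4 libraries (mean difference -917 ± 712, SD, n = 4; exact sign-flip permutation p = 0.13, adjusted p = 0.375 over 3 measures). The median number of genes differed by -37.9 ± 130.0 (exact permutation p = 0.75), lower in some libraries and higher in others, and the mitochondrial share by 0.206 ± 0.247 points (exact permutation p = 0.25). The gap was not the same in each phase: the median of the members of S differed by -3348 UMIs from that of the below-median cells of S, of G2M by -1646, and of G1 by 719.9 (means of 4 libraries). With every cell thinned to 5000 UMIs and chosen anew, 43 of 54 p53 targets were still called higher, while calls over all genes fell to 1665 higher and 1986 lower.

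Since phase differed so much, members and below-median cells were compared again within each phase. In G1 cells 1414 of 11967 genes (11.8%) were called higher and 1412 (11.8%) lower, in S cells 621 (4.8%) and 952 (7.36%) of 12943, and in G2M cells 2063 (16.1%) and 2186 (17.1%) of 12790. S rested on the fewest members, 15 to 32 a library. In each phase p53 targets were called higher: 38 of 53 tested were called in G1 (median 0.67), 29 of 54 in S (median 0.58) and 42 of 54 in G2M (median 0.76), with 0 called lower in any phase. In a fit over the 3 phases with each library and phase as a block, 2239 (17.8%) of 12606 genes were higher and 2595 (20.6%) lower, and 42 of 54 targets were higher (median 0.70). This blocked fit counted the phases of 1 library as separate blocks, although they are not independent, so its p-values overstate the replication. With library totals alone the share of calls that were higher went from 39.5 to 68.2% in S cells and from 46.3 to 57.7% in the blocked fit.

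Notch1 was higher in the members in each phase. In G1 cells it measured 159, 136, 118 and 125 CPM in the below-median cells and 527, 516, 546 and 471 CPM in the members, a log2 fold change of 1.93. In S cells the members stood at 370.5, 360.4, 389.7 and 356 CPM (1.58) and in G2M cells at 481, 469, 484 and 453 CPM (2.12). In every phase all 4 member libraries lay above all 4 sets of below-median cells. Gdf15, a secreted stress cytokine that is also in the repair and metabolism group of p53 targets, changed unequally over the phases. In G2M cells it went from 81.8, 60.6, 64 and 67 CPM to 307, 337, 422 and 305 CPM (log2 fold change 2.32 ± 0.066 SE, adjusted p = 2.82e-262), but in G1 cells from 103, 86.7, 95.4 and 139 CPM to 166, 91.3, 154 and 112 CPM (log2 fold change 0.33 ± 0.10 SE, adjusted p = 0.00869), where the groups overlap. In S cells its change was 0.26 ± 0.14 (SE, adjusted p = 0.289). The change in G2M exceeded that in G1 by 2.00 ± 0.13 (SE, adjusted p = 9.49e-37), in a fit of both phases together that was added after seeing the data.

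In that fit, 269 of 12423 genes (2.17%) changed more upwards in G2M than in G1 and 144 (1.16%) the other way. Among the p53 targets, 6 were called as rising more in G2M, Gdf15 described above being 1 of them. The others were Trp53inp1, Bbc3, Fas, Ercc5 and Fdxr, with differences of 0.44, 0.64, 0.43, 0.39 and 0.81 (adjusted p = 0.0132, 0.0442, 0.0231, 0.0296 and 0.0454). Ckap2 rose more in G1, by 1.40 there and 0.63 in G2M (difference -0.76 ± 0.13 SE, adjusted p = 1.51e-06). Nectin4 and Fam180a, of the largest rises, also rose more in G2M, with differences of 1.70 and 1.05.

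**Figure D4:**
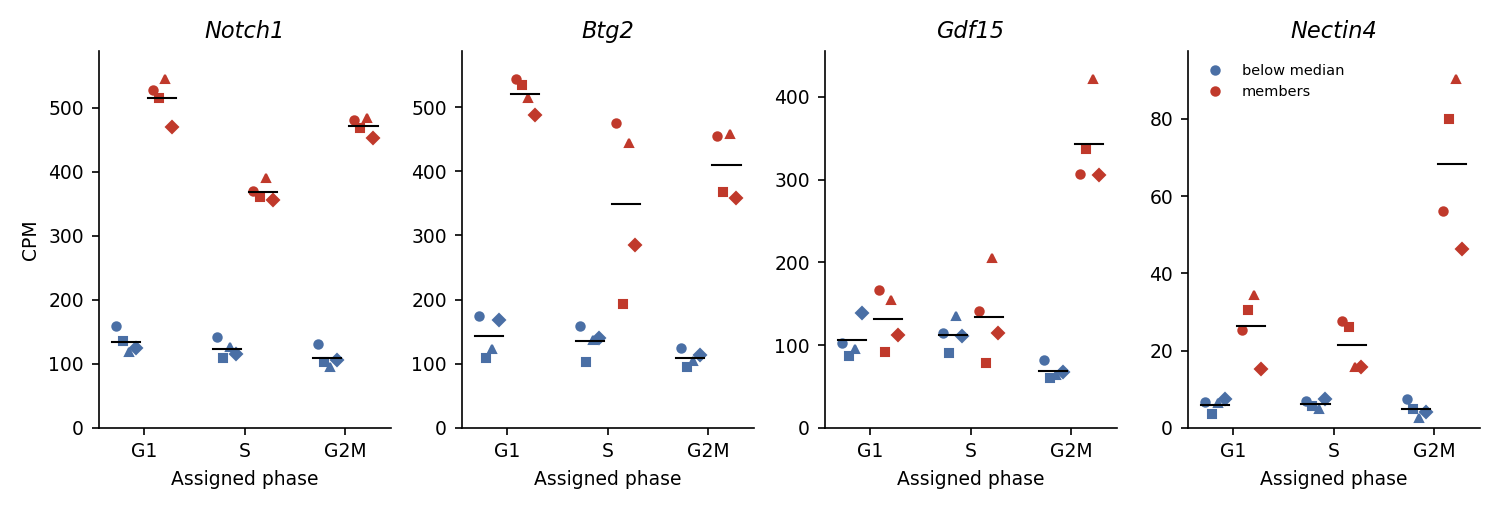
CPM of Notch1, Btg2, Gdf15 and Nectin4 in the below-median cells (blue) and the members (red) of each 37 °C library, by assigned phase. Each symbol shape is 1 replicate and the black lines are means. Notch1 and Btg2 separate in every phase, whereas Gdf15 separates in G2M and overlaps in G1 and S.

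Within a phase, the cycle genes moved differently from the comparison over all cells. In G2M cells 39 of 54 G2M genes were called lower in the members and 5 higher (median -0.30), while 16 of 43 S genes were higher and 3 lower. In G1 cells 13 G2M genes were lower and 6 higher, and 19 S genes lower and 1 higher. Ccnb2, a cyclin of mitosis, measured 44.8, 82.1, 67.6 and 58.1 CPM in below-median G1 cells and 3.04, 3.04, 2.86 and 5.55 CPM in G1 members (log2 fold change -4.06 ± 0.27 SE, adjusted p = 8.78e-48). In G2M cells its values were 152, 190.4, 178 and 167 CPM and 114, 156, 119 and 120.1 CPM (log2 fold change -0.44 ± 0.07 SE, adjusted p = 5.19e-09). The fall was larger in G1 by 3.64 on the log2 scale (adjusted p = 5.17e-24). Mki67 changed by -1.97 in G1 and -0.15 in G2M. Phases were assigned with these same lists, so within-phase levels of their genes are not independent of the assignment.

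Ribosomal protein and heat shock genes were mostly lower in the members. Of 77 ribosomal protein genes, 71 were called lower and 1 higher, by a median of -0.28. Rpl8 measured 3927, 3937, 4006 and 4487 CPM in the below-median cells and 2824, 2846, 2987 and 3359 CPM in the members (log2 fold change -0.45 ± 0.028 SE, adjusted p = 2.62e-24). Summed, these genes stood at 164253 ± 9482 CPM in the lowest decile of the score, at 172144 ± 6101 in the third, where they were highest, and at 148494 ± 4379 in the highest decile (SD, n = 4). Of 19 heat shock genes, 13 were lower and 3 higher. Hspd1, the mitochondrial chaperonin, fell from 687, 737, 693 and 746 CPM to 306, 302, 331 and 374 CPM (log2 fold change -1.13 ± 0.042 SE, adjusted p = 6.23e-38), and the cytosolic Hsp90ab1 and Dnaja1 by 0.58 and 0.72 on the log2 scale. Of 22 genes of the ATF4 stress response, 7 were higher and 12 lower. Those higher included Sesn2 and Ddit4, which are also p53 targets, and the lower ones Phgdh, of serine synthesis (log2 fold change -1.04 ± 0.057 SE, adjusted p = 7.87e-28). Cholesterol synthesis had 13 of 23 genes lower and 0 higher over all cells, but 3 higher and 3 lower with phase and library as a block.

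Immediate early genes, which respond to growth signals and stress, were mostly higher, with 14 of 19 called higher and 2 lower (median 0.58). Egr1 measured 139, 116, 138 and 118 CPM in the below-median cells and 299.6, 281, 298 and 256 CPM in the members (log2 fold change 1.15 ± 0.049 SE, adjusted p = 2.19e-34), Junb rose by 1.05 and Klf4 by 0.82. Secreted factors linked to senescence went the other way: of 19 tested, 9 were lower, Ccl2 and Timp1 among them. Gdf15, which is also in the p53 target lists, alone was higher. Timp1 fell from 280.2, 285, 291 and 334 CPM to 141, 164, 196 and 193 CPM (log2 fold change -0.78 ± 0.051 SE, adjusted p = 2.6e-23). Antioxidant and metallothionein genes split, 4 higher and 8 lower of 16, with Gclc, of glutathione synthesis, at 0.99 and Gsta4 at -1.49. Of 6 nuclear noncoding RNAs 3 rose, Neat1 from 561, 489, 548 and 518 CPM to 1079, 1034, 998 and 1033 CPM (log2 fold change 0.97 ± 0.037 SE, adjusted p = 1.34e-37) and Malat1 by 0.54. Of 13 mitochondrially encoded genes 6 were lower and 2 higher.

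Genes of cell identity went in both directions. Mesenchymal and matrix genes had 8 of 20 lower and 2 higher, with Twist1 at -0.69 ± 0.078 (SE, adjusted p = 2.03e-12) and Pdgfrb at -0.63. Contractile genes had 5 lower and 2 higher of 16, against 21.9% lower and 19.3% higher over all genes tested. Of the 7 neural progenitor genes tested, 3 were higher and 3 lower. Hes1, a target of Notch signalling, rose from 90.6, 127, 94.3 and 75.6 CPM to 157, 222, 188 and 133 CPM (log2 fold change 0.85 ± 0.056 SE, adjusted p = 1.35e-23), while Nes (nestin) fell from 499, 494, 457 and 563 CPM to 298, 269, 264 and 462 CPM (log2 fold change -0.66 ± 0.05 SE, adjusted p = 3.2e-20). Nes was lower in 4 of 4 libraries, but the ranges of members and below-median cells overlapped. Of 10 pan-neuronal genes 4 were higher and 0 lower, Celf5 measuring 38.4, 25.8, 26.4 and 28.4 CPM against 111, 124, 128 and 101 CPM (log2 fold change 1.96 ± 0.077 SE, adjusted p = 6.23e-37). Dopaminergic genes were scarce: 3 of 5 tested were lower, Foxa2 among them (-0.80), and Th had 0 UMIs in the members. The log2 fold changes of the tested genes ran from -0.80 to 0.89. Aldh1a1, a dopaminergic marker that the study names, was not called. It was called higher with the score without Cdkn1a (1.90, adjusted p = 0.00122) and with the top 20% (1.03, adjusted p = 0.0234). With at most 10% mitochondrial UMIs it was higher too (1.20, adjusted p = 0.046). The calls of Nr4a2 and En1 were lost with DESeq2 (adjusted p = 0.163 and 0.0979) and without replicate 4 (adjusted p = 0.123 and 0.0667), and that of Nr4a2 also without replicate 1 or 2 (adjusted p = 0.167 and 0.0629). Within phases 0 dopaminergic genes were called lower in G1 and S and 1 in G2M. Of 10 tested genes that the study names, 5 were higher and 4 lower. Id2, Irx3 and Cdh13 rose by 0.85, 0.79 and 0.75, and Hmga2 fell by 0.48 on the log2 scale, a call that was lost with the score without Cdkn1a (-0.11, adjusted p = 0.263). Of markers of other cell types, 2 of 6 glial genes were higher and 0 lower, and 2 of 6 immune and endothelial genes were higher and 2 lower. Aldh1l1 and Cspg4 (glia) and Cd68 (macrophages) were higher, by 1.34, 0.87 and 1.05, at 8.36, 37.7 and 29.5 CPM in the members, while the glial markers Gfap, Olig2 and Sox10 were at 0 UMIs. Of the defining immune markers, Ptprc had 1 UMI in the members and 1 in the below-median cells, Csf1r 2 and 4, and Aif1 0 and 7. Their part in other results was not tested.

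Of the 10 genes most like the score from cell to cell, 7 were p53 targets of the lists. Likeness was the Spearman correlation, over the cells of a library, between a gene's CPM and the score, averaged over the 4 libraries, for 6200 genes detected in at least 20% of cells. Cells of a library share depth and phase, so the values are a description. Notch1 had the highest mean rho, 0.575 (0.525 to 0.604 between libraries), followed by Phlda3 (0.524), Trp53inp1 (0.522), Btg2 (0.497), Dcxr (0.437), Ercc5 (0.408) and Fas (0.398). The ranges of the first 4 genes between libraries overlap, so their order is not fixed. Trim7, Rap2b and Ddit4l, which were in no p53 list here, completed the first 10 at 0.394, 0.376 and 0.376. The median over all genes was -0.00317. At the other end stood Eif5a, Hspd1 and Eef1g, at -0.373, -0.372 and -0.349. Trim7 measured 50.1, 34.5, 39.9 and 38.8 CPM in the below-median cells and 142, 138, 158 and 126 CPM in the members (log2 fold change 1.79 ± 0.067 SE, adjusted p = 6.23e-38).

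Whether the difference between high and low scorers is the same at 39 °C was tested by choosing the top 10% and the below-median cells of each 39 °C library the same way. Scores were higher there, with library medians of 0.373 to 0.4% of UMIs against 0.218 to 0.246% at 37 °C. Of 13935 genes, 1610 (11.6%) rose more or fell less at 37 °C and 1563 (11.2%) the reverse. With library totals alone these counts were 2324 and 936, 71.3% against 50.7% of calls in the first direction, and the median over all genes moved from 0.025 to 0.13, so small differences are read relative to that shift. The members at 39 °C were 91.9 to 94.1% G1 cells and their median UMIs were 9035 to 22177, against 74.8 to 79.5% and 7401 to 16040.0 in the below-median cells there. Phase and depth thus differed between members and below-median cells in other ways than at 37 °C, and their part was not tested. The score genes that chose the cells differed in level too. Cdkn1a lay between 632 and 766 CPM in the below-median cells and between 2469.9 and 2842 in the members at 37 °C, against 1484 to 1631 and 3330.4 to 3764 CPM at 39 °C, and the part of this contrast was not tested. The p53 targets outside the score changed more at 37 °C in 29 of 54 and less in 4 (median difference 0.32). Notch1 changed by 1.96 at 37 °C and 1.01 at 39 °C (difference 0.95 ± 0.055 SE, adjusted p = 1.69e-31), and Trp53inp1 by 2.15 and 1.14 (difference 1.01 ± 0.068 SE, adjusted p = 7e-27). Rps27l and Plxnb2 changed less at 37 °C, with differences of -0.26 and -0.32. Acta2 (smooth muscle actin) changed by 0.17 at 37 °C and -2.78 at 39 °C (difference 2.96 ± 0.18 SE, adjusted p = 1.33e-29), and Myl9, a myosin light chain gene, by 0.055 and -3.19. Gas1, a growth arrest gene, changed by -0.54 at 37 °C and 1.86 at 39 °C (difference -2.39 ± 0.12 SE, adjusted p = 4.29e-36).

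Set beside all 39 °C cells within the same limits (8133 cells), the 37 °C members had p53 targets near the 39 °C level but cycle genes far above it. The 39 °C values cover all cells within the limits, whereas the members are the top 10% of their libraries. Of 14711 genes, 2374 (16.1%) were higher in the members and 2786 (18.9%) lower (46% of calls higher, and 56.4% with library totals alone). Among the 54 p53 targets 4 were higher and 14 lower, with a median of -0.10. Their summed level was 11317 ± 319.5 CPM in the members and 12031 ± 269 CPM in the 39 °C cells (SD, n = 4 each). Notch1 measured 488, 470.2, 486 and 449 CPM in the members and 468, 481, 489.7 and 501 CPM at 39 °C (log2 fold change -0.034 ± 0.06 SE, adjusted p = 0.71), so the libraries overlap and no difference was detected. For Btg2 the difference was -0.18 ± 0.082 (SE, adjusted p = 0.0868) and for Mdm4 -0.049 ± 0.063 (SE, adjusted p = 0.594). Ephx1 and Perp were lower in the members, with log2 differences of -0.62 and -0.49, and Ckap2, which is also a G2M gene, was higher by 1.14.

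Of the G2M list 52 of 54 genes were higher in the members than at 39 °C and 0 lower (median 2.51), and of the S list 40 of 43 higher and 1 lower (median 1.12). Mki67 stood at 246, 316, 369 and 369 CPM in the members and at 18, 18, 21.5 and 23.4 CPM at 39 °C (log2 fold change 4.00 ± 0.11 SE, adjusted p = 2.21e-19). Several genes that the study names for the temperature shift were lower in the members than at 39 °C, with log2 differences of -2.39 ± 0.083 (SE, adjusted p = 2.31e-17) for Hmga2, -1.30 for Irx3, -1.05 for Cdh13 and -0.65 for Celf5. Nes was higher, by 1.51 ± 0.11 (SE, adjusted p = 9.79e-11). Among called genes of at least 20 CPM in either group with 1 direction in all libraries, the largest shortfalls were Fgf2, Enpp2, Spp1, Il33 and Dkk2, at -2.85, -2.67, -2.64, -2.55 and -2.45 on the log2 scale.

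**Figure D5:**
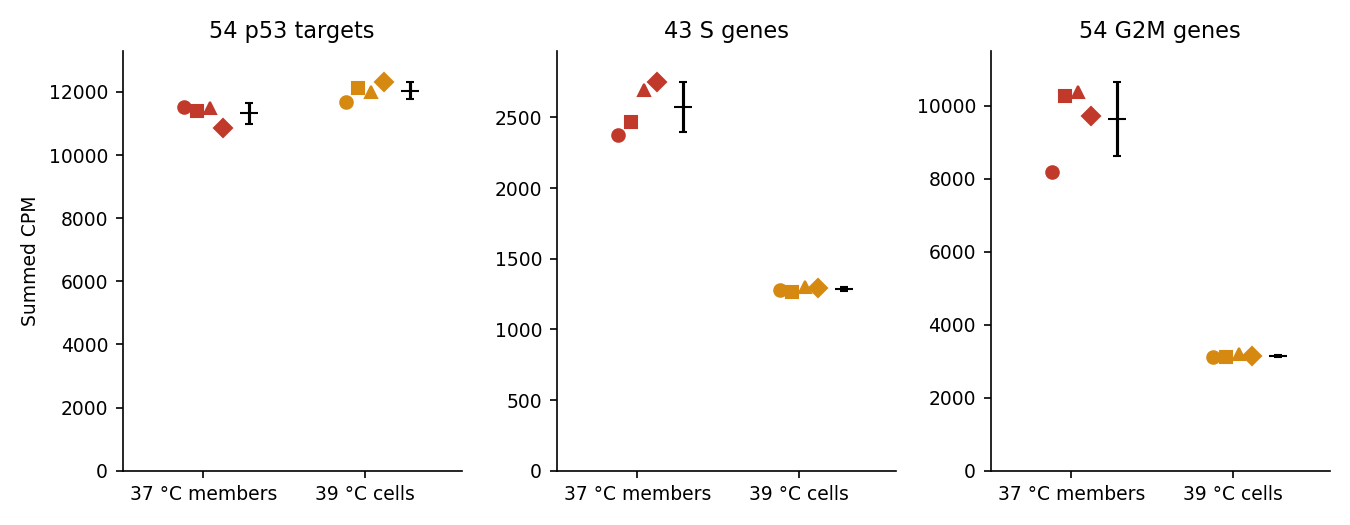
Summed CPM of the 54 p53 targets outside the score, the 43 S genes and the 54 G2M genes in the 37 °C members and in all 39 °C cells within the limits. Each symbol is 1 library and the bars are the mean ± SD of 4. The p53 targets of the members lie just below those of the 39 °C cells, and the cycle genes lie far above.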

How the data were processed

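Single-cell libraries of the 10x Chromium 3' V3 kit were aligned and counted by the authors with Cell Ranger 3.0.1 (mm10, per the submitters' processing notes), and the deposited matrices hold UMI counts per gene and cell, with no normalization. Cells were kept with at most 15% mitochondrial UMIs, 200 to 6000 genes and at least 5000 UMIs. No doublet caller was run, so the upper gene limit was the one guard against doublets. Groups came from the labels.

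UMIs were summed per library and class (and phase), and genes averaging 1 count or more in these sums were tested with edgeR 4.0.16 (quasi-likelihood, TMM, library as block, Benjamini-Hochberg adjustment over all genes; R 4.3.3). SE is the fold change divided by the root of its F statistic. Levels are CPM of the sums. Phases came from Seurat 5.3.0. Shares and medians were compared with two-sided exact sign-flip permutation tests. Alternatives covered scaling, filters, DESeq2 1.42.0, the score, the limits, the choice of cells, and each library left out. On simulated counts for members against below-median cells, 71 of 100 genes changed by 0.5 (log2) and 92 of 100 changed by 1 were recovered, with 8 false calls among 13834 genes. Recovery was lowest in S cells, at 17 and 57 of 100, and was 28 and 77 of 100 for G2M minus G1. The changed genes were drawn from those with higher mean counts than the filter required, and all others were left unchanged. The simulation thus does not cover scarce genes or changes as widespread as those called here.

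The members and the gene lists were chosen with earlier results of these data known. Genes named in the text were the score genes, p53 targets that were called or reached 20 CPM, the 10 genes that rose and the 10 that fell the most (called, at least 20 CPM, 1 direction in all 4 libraries), up to 3 called genes of each other list by adjusted p, the 5 that rose and fell the most in the other fits, genes the study names with Trp53, and the 10 genes most like the score. Some genes are not reported here. Sequences came from RefSeq promoters (GRCm38.p6).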

Additional observations from a re-analysis of the deposited data

Results flagged for a closer look

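Of 144 values tested for a library far from the other 3, 4 stood apart, and chance gives about 1 in 20 such groups. The log2 ratio of members over below-median cells was 1.27 for Egr1 in replicate 2 at 37 °C against 1.10 to 1.11 in the others, and 0.99 for Hes1 in replicate 3 against 0.78 to 0.81. It was 0.13 for Map2 in replicate 2 against 0.48 to 0.55, and 0.68 for Irx3 in replicate 1 against 0.80 to 0.82.

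The change from below-median cells to members differed between 37 °C and 39 °C, by a test of the difference itself, in 1610 genes in one direction and 1563 in the other. The change at 37 °C minus that at 39 °C was 3.25 for Myl9, 3.10 for Esco2, 2.96 for Acta2, 2.84 for Ndufa4l2 and 2.49 for Pbk on the log2 scale. It was -2.45 for Tlr2, -2.39 for Gas1, -1.46 for Tsr1, -1.40 for Srm and -1.40 for Tmem238.

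The change also differed between G2M and G1 cells, in 269 genes upwards and 144 downwards. The change in G2M minus that in G1 was 3.64 for Ccnb2, 3.46 for Grem1, 3.08 for Sncg, 2.94 for Kif20a and 2.29 for Pclaf. It was -2.37 for Depdc1a, -2.08 for Gas2l3, -1.97 for Arhgap19, -1.57 for Bora and -1.50 for Ccnf. The value of Grem1 rested on replicate 3, without which it was -1.94 (adjusted p = 0.735). The call of Sncg, which was at 0 CPM in 3 of 4 sets of G1 members, was lost without replicate 1, 2 or 3 (adjusted p = 0.186, 0.0715 and 0.101). Calls were also lost for Depdc1a without replicate 2 or 4 (adjusted p = 0.182 and 0.0873), Gas2l3 without replicate 3 (0.19), Arhgap19 without replicate 1 or 4 (0.0756 and 0.118) and Bora without replicate 2 or 4 (0.369 and 0.161), where Bora was at -1.03 without replicate 2.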

How the results depend on the processing

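Of 205 results on single genes, 168 were unchanged under every alternative in which they could be compared, and 37 changed under at least 1. A change was a reversed direction or a crossing of the threshold. For the log2 ratios of the 3 score genes, which have no threshold, it was a move larger than the SD between libraries. These 3 ratios are among the 37, since they were smaller, in the same direction, in the UMIs not used for choosing. Reversals were few. With members chosen within each phase, the log2 fold change was -0.016 for Gadd45a, -0.030 for Cdkn2d, 0.13 for Lig1 and -0.17 for Mki67. Ankra2 was at -0.016 with the score without Cdkn1a, and Grem1 (G2M minus G1) ranged from -1.94 to 4.69 when each library was left out, negative without replicate 3 at 37 °C. The cause was not tested.

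Counts moved by over 1.5 times as follows, given as higher and lower. Thinned to 5000 UMIs, calls were 1665 and 1986 over all cells, 689 and 732 in G1, 222 and 476 in S, 1110 and 1125 in G2M, 1316 and 1665 with phase and library as block, 78 and 19 for G2M minus G1 and 809 and 524 for 37 °C minus 39 °C, and 1798 were lower against 39 °C cells. Fewer UMIs enter that fit by construction. With DESeq2, 2029 were lower over all cells, and calls were 645 and 504 in G1, 1162 and 1001 in G2M, 89 and 47 for G2M minus G1 and 1019 and 830 for 37 °C minus 39 °C, and 394 were lower in S. In S cells, calls were 95 and 325 with the top 5%, 1347 and 1615 with the top 20%, 1533 and 1869 chosen within each phase, and 1017 and 475 with library totals only. With all other cells as comparison, 856 were higher in G1, 373 in S, and 133 and 66 differed for G2M minus G1. For G2M minus G1, the score without Mdm2 gave 163 higher, phases scored in each library 439 and 343, and cells with at least 10000 UMIs 73 lower. For 37 °C minus 39 °C, cells with at least 10000 UMIs gave 1019 lower and library totals 936. p53 targets called higher in S were 9 with the top 5%, 18 with all other cells as comparison and 18 when thinned.

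The S share difference was -48.0 points with the top 5%, -36.2 with the top 20%, -33.8 with all other cells, -38.5 without Cdkn1a in the score, -37.3 without Mdm2, -38.2 when thinned, -45.8 with at least 10000 UMIs and -32.7 with phases scored in each library. The G1 difference was 8.80 with all other cells, 7.77 without Cdkn1a and 6.58 with phases scored in each library, and the G2M difference 21.4 with the top 20% and 20.8 without Mdm2.

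Leaving out each library in turn gave 366 to 522 genes higher and 607 to 776 lower in S, fewest without replicate 1, with 22 to 28 p53 targets. For G2M minus G1 it gave 158 to 191 higher, fewest without replicate 4, and 77 to 102 lower, fewest without replicate 1.

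Without the replicate block, 2561 genes were higher and 2809 lower over all cells, with 42 p53 targets higher. With a replicate block against 39 °C cells, 2331 were higher and 2739 lower. Deviations of libraries with the same number at both temperatures correlated at -0.119, -0.142, -0.095 and 0.235. Those with different numbers ran from -0.309 to 0.278, so these values cannot show whether the numbers pair the libraries. Depth limits S cells most, with 15 to 32 members a library.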
